A study of Mus musculus with 12 samples.

Results

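The 45 genes described here encode proteins of tight junctions and desmosomes, proteins that set apical and basal polarity, and the nectins and catenins that tie cell contacts to actin. They are a fixed list of gene symbols among the 25514 genes that could be counted. The list holds 4 tight junction scaffolds, 11 tight junction membrane proteins, 11 polarity proteins, 12 desmosome proteins and 7 nectins and catenins. Their transcripts were measured by RNA-seq in conditionally immortalized mouse proximal tubule (PT) cells, in 12 libraries of 4 groups with 3 libraries each. The groups were untreated TβRII flox/flox PT cells (genotype H2ts6;Tgfbr2fl/fl, called floxed cells below), untreated TβRII-/- PT cells (H2ts6;Tgfbr2-/-), and both genotypes after 24 h of H2O2 in serum-free medium. All cells carried the Immorto-mouse T antigen, which works at the lower temperature and lets cells divide in culture, came from male mice, were grown at 33 °C with interferon gamma and 2.5% fetal bovine serum, and were moved to 37 °C 5 days before the experiment. TβRII-/- PT cells were made from TβRII flox/flox PT cells by adenoviral Cre in culture, so the genotypes were 2 cell lines. Loss of TβRII and any other difference between the lines cannot be told apart, and p-values measure the spread between libraries, which may be technical. Untreated cells stayed in complete medium, so H2O2 and serum withdrawal cannot be told apart either. The dose of H2O2 is 200 mM in the sample labels, while the methods of the study give it in micromolar.

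Tight junctions seal the space between epithelial cells. Occludin and the tricellulin family (the Marvel-domain proteins), the junctional adhesion molecules and the angulins span the membrane there, and ZO proteins and cingulins hold them to actin. Desmosomes are spot-like contacts in which cadherins (desmogleins and desmocollins) are linked to intermediate filaments through plakoglobin, plakophilins and desmoplakin. The Par, Crumbs and Scribble complexes set the position of these contacts along the lateral membrane. In the kidney, the proximal tubule has a leaky paracellular barrier with few desmosomes, whereas distal segments are tighter.

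The gene counts, those of the transcript with the highest total for each gene, summed to between 15870155 and 20857618 per library. Values below are normalized counts, scaled to a library of 17351835 counts. The first principal component, which separated the genotypes, held 81.5% of the variance. Tgfbr2, the deleted gene, was counted in every library, at 7562 to 9248 normalized counts in untreated floxed and 6358 to 6782 in untreated TβRII-/- cells, and at 13275 to 13918 and 7116 to 7311 with H2O2. A count over the whole transcript does not test the loss of the floxed exon. Of the proximal tubule markers, the endocytic receptor Lrp2 and the water channel Aqp1 were abundant, with means of 17280 and 7103 in untreated floxed cells. The phosphate transporter Slc34a1, the organic anion transporters Slc22a6 and Slc22a8, and the transcription factor Hnf4a, which define this segment in vivo, had at most 0.67 mean normalized counts in any group.

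Between untreated genotypes, transcripts of the desmosome proteins desmoplakin, periplakin, envoplakin, desmoglein 2 and plakophilin 3, of occludin and the tricellulin family and of the atypical protein kinase C zeta were higher in TβRII-/- cells, several of them from near 0. Plakoglobin and the plakophilins Pkp2 and Pkp4 were not called. Transcripts of the angulin Ildr2, the junctional adhesion molecule Jam3, the nectin Nectin3 and the polarity scaffold Pard3 were lower. Of the 45 genes, 40 passed the filter on low counts, and 20 of these (50%) were called, 16 as risen and 4 as fallen. A call meant a change of 1.5-fold or more with a Benjamini-Hochberg adjusted p below 0.05, from the quasi-likelihood test of edgeR. Over all 12971 genes tested, 28% passed the same limits, 16.3% upward and 11.8% downward. Without the fold limit 28 genes were higher and 8 lower, 36 in all, beside 64.7% of all genes tested (33.3% higher and 31.4% lower). The median log2 fold change was 0.38 over the 40 genes and 0.01 over all genes. Ocln, Prkcz, Pkp3 and Ildr2 passed the filter only through the genotype in which they were high, and so had to differ. Without them 13 of 36 rose and 3 fell, with a median of 0.35. The remaining 5 genes, Jam2, Ildr1, Dsc2, Pkp1 and Pof1b, had at most 10 raw counts in any library and were not tested, and Dsc2, a desmocollin, had 0 counts in every library. In bulk samples such as these, a change in the number of cells that express a gene and a change in RNA per cell cannot be told apart.

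**Figure D1:**
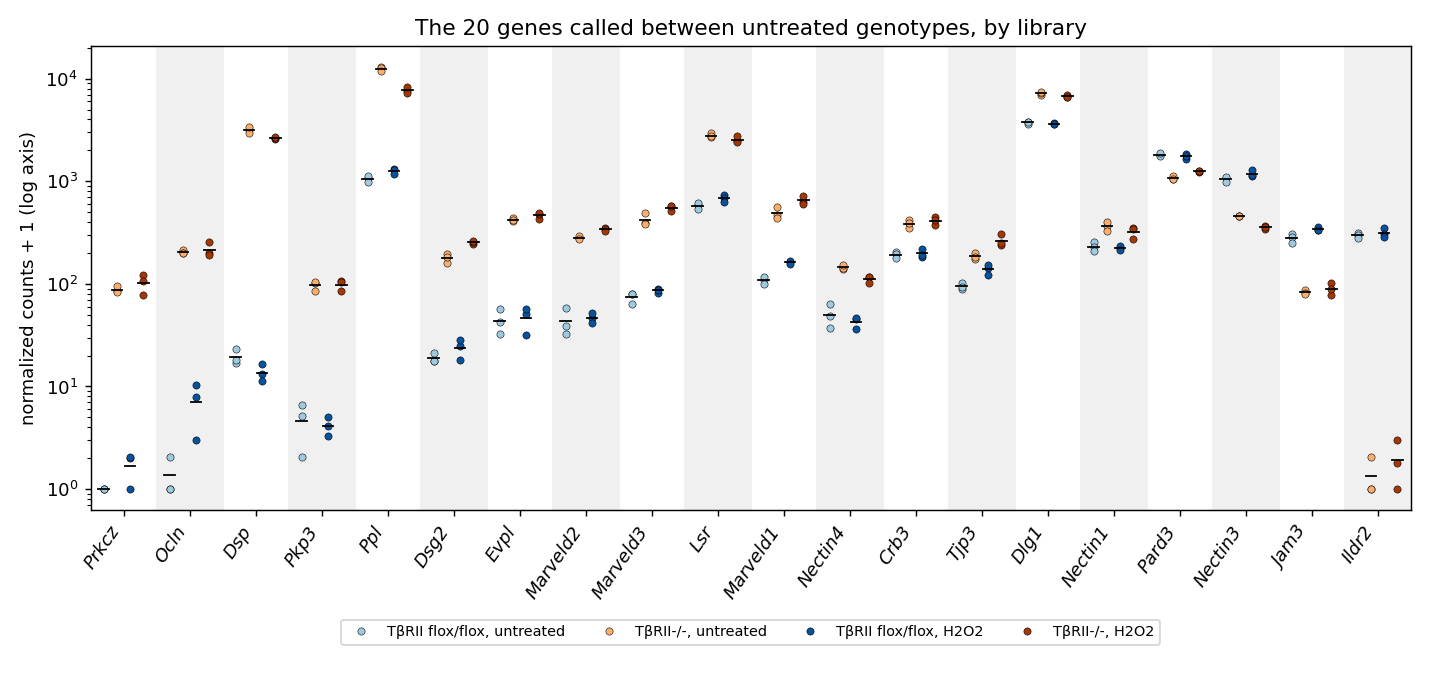
Normalized counts plus 1, on a log axis, of the 20 genes called between untreated genotypes. Each point is a library, each short line the mean of the 3 libraries of a group, and genes run from the largest rise to the largest fall in TβRII-/- cells. In each of the 20 genes the 3 untreated libraries of 1 genotype lie apart from those of the other, which the call nearly requires. They lie apart in 36 of the 40 genes tested, among them Ocln, Prkcz, Pkp3 and Ildr2, which had to differ. The share over all genes was not counted, so the 36 cannot be read as particular to these genes. Prkcz, Ocln and Ildr2 are at or near 0 in 1 genotype.

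Of the 12 desmosome genes 9 were tested, 5 rose and none fell, and the 4 that did not pass (Jup, Pkp2, Pkp4 and Perp) had log2 fold changes of -0.06 to 0.53. The median over the 9 was 3.30, and without Pkp3, which passed the filter through TβRII-/- cells alone, 4 of 8 rose with a median of 1.91. Dsp, desmoplakin, which anchors intermediate filaments to the plaque, had 15.8, 22.3 and 17.2 normalized counts in untreated floxed cells and 3175, 2965 and 3349 in untreated TβRII-/- cells. The genotypes did not overlap, and the log2 fold change was 7.42 ± 0.11 (SE, n = 3, edgeR adjusted p = 3.28e-32). Ppl, periplakin, which links keratin filaments to the membrane, had 1064, 1113 and 979 normalized counts in floxed and 12979, 12566 and 11888 in TβRII-/- cells. Its log2 fold change was 3.57 ± 0.07 (edgeR adjusted p = 2.31e-28). Evpl, envoplakin, a partner of periplakin, had 31.6, 41.2 and 55.9 normalized counts against 406, 441 and 417. That is a log2 fold change of 3.30 ± 0.15 (edgeR adjusted p = 3.21e-19). Dsg2, the desmoglein of simple epithelia, had 16.8, 16.7 and 20.4 normalized counts against 196, 160 and 183, and a log2 fold change of 3.31 ± 0.18 (edgeR adjusted p = 7.92e-17). The plakophilin Pkp3 had 4.21, 5.56 and 1.08 normalized counts against 83.7, 101 and 102, given as a description. In Dsp, Ppl, Evpl and Dsg2 each TβRII-/- library exceeded each floxed library, whereas Pkp3 had to differ. Jup, plakoglobin, which binds the desmosomal cadherins, had 3225, 3047 and 3205 normalized counts against 3194, 2795 and 3112. These values overlapped, and its log2 fold change was -0.06 ± 0.06 (edgeR adjusted p = 0.391).

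Per kilobase of transcript and per 1000000 counts, which allows levels to be compared between genes, the desmosome genes differed in order between the genotypes. In untreated floxed cells Perp, a membrane protein of desmosomes, at 68.4 ± 4.96 (SD, n = 3) and Jup at 55.1 ± 1.71 were highest, with Ppl at 9.61 ± 0.62 and Dsp at 0.11 ± 0.02. In untreated TβRII-/- cells Ppl was at 114 ± 5.03, Perp at 98.8 ± 5.60, Jup at 52.9 ± 3.68 and Dsp at 18.9 ± 1.15. Dsg2 (1.78), Pkp3 (1.93) and Evpl (3.79) stayed low on this scale in TβRII-/- cells, and the desmocollins Dsc1, Dsc2 and Dsc3 had at most 0.37 mean normalized counts in any group.

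**Figure D2:**
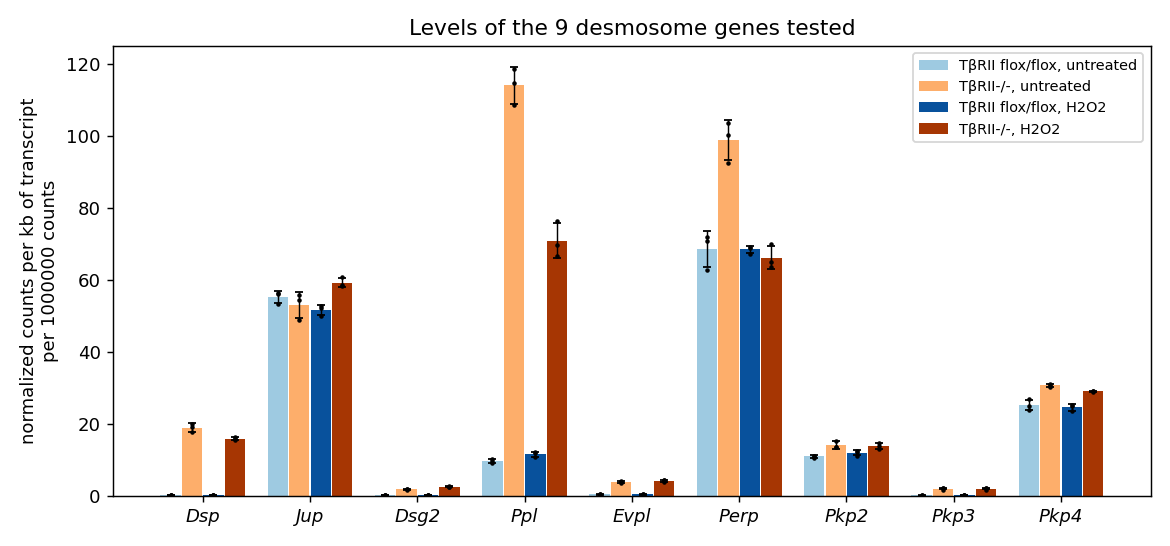
Normalized counts per kilobase of transcript and per 1000000 counts of the 9 desmosome genes tested. Bars are means of 3 libraries, error bars the SD and dots single libraries. Ppl rises from 9.61 to 114 between untreated genotypes and is at 70.8 in TβRII-/- cells with H2O2, whereas Jup lies between 51.6 and 59.2 in all 4 groups.

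Among the tight junction membrane proteins 9 of 11 were tested, 5 rose and 2 fell, and F11r and Cxadr did not pass. Without Ocln and Ildr2, 4 of 7 rose and 1 fell. Ocln, occludin, had 0, 0 and 1 raw counts in untreated floxed cells and 203, 207 and 210 in untreated TβRII-/- cells. The ratio of normalized counts was 568, with an exact 95% interval for counting error of 102 to 22468. Marveld2, tricellulin, which sits where 3 cells meet, had 57.9, 37.8 and 31.2 normalized counts against 276, 290 and 274, a log2 fold change of 2.72 ± 0.15 (SE, n = 3, edgeR adjusted p = 5.44e-17). Marveld3, a further Marvel-domain protein of tight junctions, had 62.1, 79.0 and 78.5 normalized counts against 485, 389 and 378, and a log2 fold change of 2.51 ± 0.12 (edgeR adjusted p = 3.09e-18). The libraries of the genotypes stood apart in Marveld2 and Marveld3, and Ocln, which passed the filter through TβRII-/- cells alone, had to differ. Marveld1, a related Marvel-domain protein, had 108, 117 and 97.9 normalized counts against 561, 471 and 441 (log2 fold change 2.19 ± 0.11, edgeR adjusted p = 1.1e-17).

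The angulins, which recruit tricellulin to tricellular contacts, went in opposite directions. Lsr (angulin-1) had 584, 614 and 531 normalized counts in untreated floxed and 2931, 2678 and 2744 in untreated TβRII-/- cells, a log2 fold change of 2.27 ± 0.07 (edgeR adjusted p = 2.59e-23). Ildr2 (angulin-3) had 294, 267 and 262 raw counts in floxed and 1, 0 and 0 in TβRII-/- cells. Its ratio, flox/flox over -/-, was 898 (exact 95% interval for counting error 161 to 35529). Ildr1 (angulin-2) had at most 2 raw counts in any library. Jam3, a junctional adhesion molecule, had 304, 284 and 249 normalized counts against 85.8, 80.4 and 79.5, a log2 fold change of -1.77 ± 0.12 (edgeR adjusted p = 3.19e-14). F11r, junctional adhesion molecule A, had 1391, 1286 and 1132 normalized counts against 1734, 1693 and 1670, which did not overlap. Its log2 fold change of 0.42 ± 0.06 (edgeR adjusted p = 1.02e-06) was under the fold limit of 0.585 on the log2 scale. Cxadr, the coxsackie and adenovirus receptor, had 14037 ± 1105 (SD, n = 3) and 11562 ± 567 normalized counts, and was the highest of these membrane proteins per kilobase in both genotypes (141 and 116).

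Of the 4 tight junction scaffolds only Tjp3 (ZO-3) rose, from 88.4, 101 and 92.5 to 201, 172 and 184 normalized counts (log2 fold change 0.98 ± 0.13, edgeR adjusted p = 1.39e-07). Tjp1 (ZO-1), the main scaffold under occludin, had 5099, 4517 and 5228 normalized counts against 5648, 5448 and 6592. The genotypes did not overlap, with a log2 fold change of 0.25 ± 0.07 (edgeR adjusted p = 0.00176), under the fold limit. Cgn and Cgnl1, cingulin and paracingulin, which tie ZO proteins to myosin, had log2 fold changes of 0.32 and 0.33. On the scale per kilobase Tjp3 remained low, at 1.78 and 3.51, beside 40.1 and 47.8 for Tjp1.

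Of the 11 polarity genes, all tested, 3 rose, 1 fell and 7 did not pass, and without Prkcz 2 of 10 rose and 1 fell. Prkcz, protein kinase C zeta, an atypical kinase of the Par complex, had 0 counts in all 3 untreated floxed libraries and 80, 86 and 98 raw counts in untreated TβRII-/- cells. It was at least 80.6-fold higher, computed against a floor of 3 counts over the group. Prkci, the other atypical kinase of the same complex, had 9788, 9442 and 10425 normalized counts against 9109, 9613 and 9772. These overlapped, with a log2 fold change of -0.06 ± 0.06 (edgeR adjusted p = 0.416), and per kilobase Prkci stood at 116 and Prkcz at 1.22 in untreated TβRII-/- cells. Crb3, the Crumbs protein of epithelia, had 192 ± 14.5 (SD, n = 3) and 385 ± 37.0 normalized counts (log2 fold change 1.01 ± 0.10, edgeR adjusted p = 3.04e-10). Dlg1, a scaffold of the Scribble complex, had 3741 ± 80.1 and 7234 ± 275 (0.95 ± 0.06, edgeR adjusted p = 9.13e-16). Scrib itself had 3162, 3059 and 2753 normalized counts against 3704, 3459 and 3555, apart but under the fold limit (0.26 ± 0.06). Pard3, the Par scaffold, fell from 1795, 1770 and 1877 to 1043, 1137 and 1046 normalized counts (-0.75 ± 0.06, edgeR adjusted p = 1.23e-12). Pard6b, the Par adaptor, reached a log2 fold change of 0.58 ± 0.06, just under the fold limit.

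Among the nectins, cell adhesion molecules of adherens junctions, Nectin4 had 47.3, 62.3 and 36.6 normalized counts against 140, 142 and 153 (log2 fold change 1.58 ± 0.17, edgeR adjusted p = 8.69e-10). Nectin1 rose by 0.67 ± 0.11 on the log2 scale. Nectin3 had 1085, 1102 and 983 normalized counts against 462, 463 and 459, a log2 fold change of -1.20 ± 0.07 (edgeR adjusted p = 6.86e-16). Nectin2 (-0.03 ± 0.07), the nectin-binding Afdn, afadin (0.12 ± 0.06), and the catenins did not pass. Ctnnb1, beta-catenin, had 7948, 7891 and 8262 normalized counts against 7091, 7022 and 7145, apart but with a log2 fold change of -0.18 ± 0.06. Ctnna1, alpha-catenin, was the most abundant of the 45 genes per kilobase, at 195 ± 10.8 (SD, n = 3) and 217 ± 4.87.

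**Figure D3:**
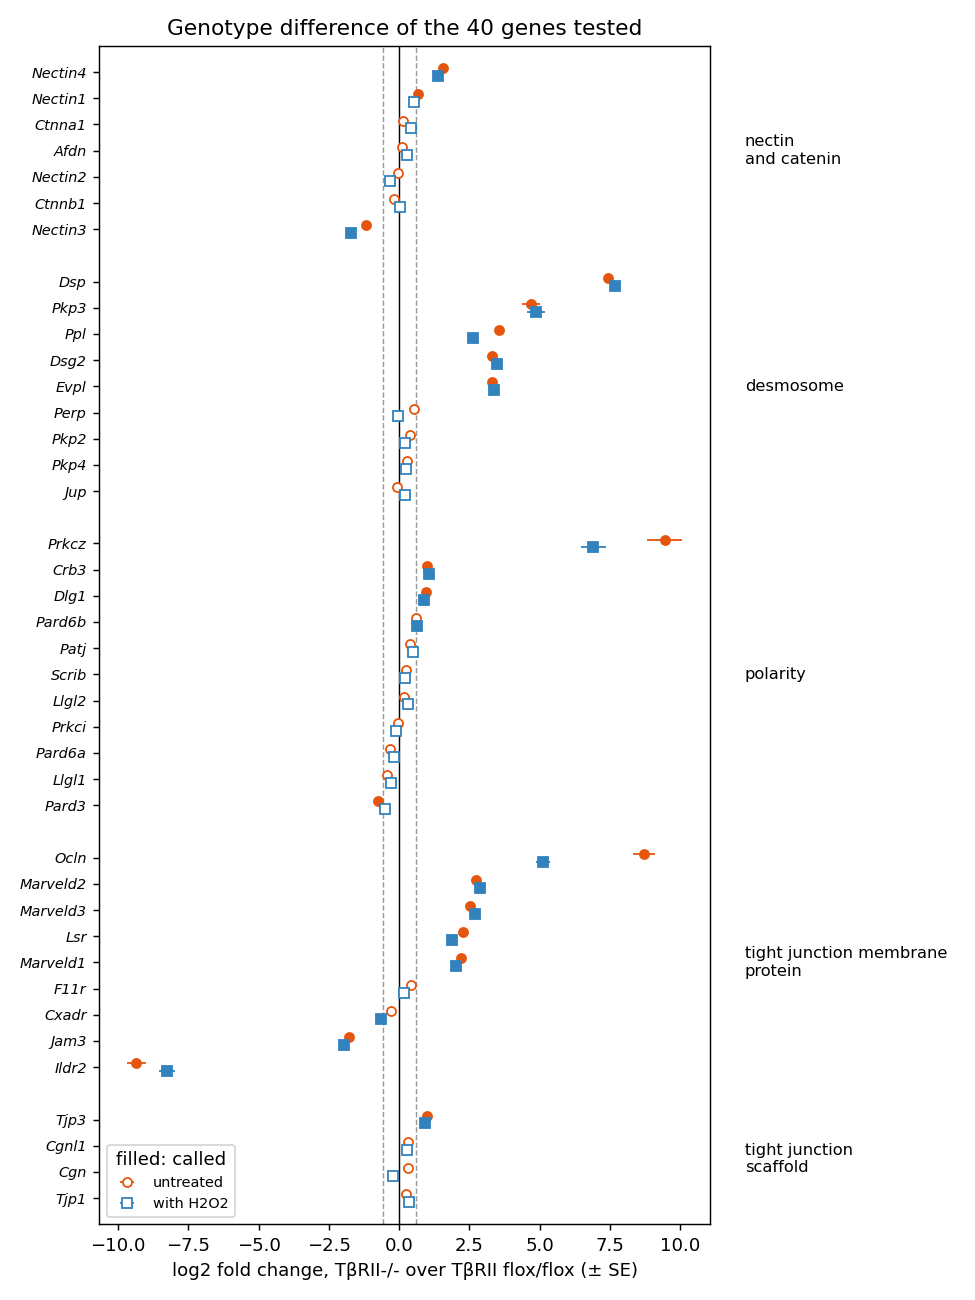
Log2 fold change between genotypes, TβRII-/- over TβRII flox/flox, of the 40 genes tested, with SE, grouped by role. Circles are untreated cells and squares cells with H2O2, filled symbols passed both limits and dashed lines mark a fold change of 1.5. Fitted values of Prkcz, Ocln and Ildr2 rest on 0 to 3 raw counts in at least one group and are not exact. Among the catenins and scaffolds most points lie inside the dashed lines, whereas 5 of 9 desmosome genes lie far to the right.

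Other transcripts of the genes called moved with the ones chosen. For 19 of the 20 genes called, 95 further transcripts had a mean of at least 10 normalized counts, and none of them went in the opposite direction. Called or not, 37 genes had 227 such transcripts. Of these, 3, all of 1 gene, had the opposite sign, with log2 ratios of -0.058 to -0.009. A read can be counted on several transcripts, so these are not independent measurements. When the median log2 fold change of up to 12 tested genes on each side of a gene was subtracted from its own, 19 genes passed upward and 3 downward. Tjp1 (0.60), Patj (0.59) and Perp (0.82) then passed the fold limit, and Pard3 (-0.45), whose neighbours had a median of -0.30, did not. Scrib (-0.21) and Jup (0.08) changed sign.

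Promoter sequences are shown for the 5 genes that rose most among those in a RefSeq promoter table, to show the bases in front of transcripts with large differences. All 5 windows lie wholly before the annotated gene. Each is the 250 bases before the start furthest upstream that the table lists for a gene, on GRCm38.p6, written 5′ to 3′ on the strand of the gene. Capitals mark CACCTG or its reverse complement CAGGTG, the E-box to which Snail and Zeb proteins bind, and TGANTCA, a motif of AP-1. In Lsr the last E-box and the AP-1 motif share bases and make up 1 run of capitals.
Prkcz, chr4:155361429-155361678, minus strand: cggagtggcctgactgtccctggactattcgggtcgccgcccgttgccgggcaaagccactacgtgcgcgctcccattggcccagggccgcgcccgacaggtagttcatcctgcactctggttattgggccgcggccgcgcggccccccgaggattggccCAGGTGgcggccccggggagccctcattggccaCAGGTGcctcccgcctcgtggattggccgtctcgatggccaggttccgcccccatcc
Ocln, chr13:100552719-100552968, minus strand: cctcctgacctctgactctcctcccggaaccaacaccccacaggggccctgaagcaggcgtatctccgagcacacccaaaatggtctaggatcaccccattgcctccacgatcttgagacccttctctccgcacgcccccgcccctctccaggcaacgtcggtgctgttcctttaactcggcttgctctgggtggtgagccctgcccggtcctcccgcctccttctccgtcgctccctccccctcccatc
Dsp, chr13:38151044-38151293, plus strand: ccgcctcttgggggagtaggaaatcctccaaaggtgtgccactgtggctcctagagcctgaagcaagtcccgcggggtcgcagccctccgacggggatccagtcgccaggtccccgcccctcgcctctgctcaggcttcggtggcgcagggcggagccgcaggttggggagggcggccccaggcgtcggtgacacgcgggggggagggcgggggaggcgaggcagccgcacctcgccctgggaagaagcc
Marveld2, chr13:100616972-100617221, minus strand: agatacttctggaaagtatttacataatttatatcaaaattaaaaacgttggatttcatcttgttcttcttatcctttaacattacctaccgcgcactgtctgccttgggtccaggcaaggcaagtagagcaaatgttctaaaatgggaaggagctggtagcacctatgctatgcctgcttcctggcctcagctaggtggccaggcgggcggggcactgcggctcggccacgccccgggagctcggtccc
Lsr, chr7:30973470-30973719, minus strand: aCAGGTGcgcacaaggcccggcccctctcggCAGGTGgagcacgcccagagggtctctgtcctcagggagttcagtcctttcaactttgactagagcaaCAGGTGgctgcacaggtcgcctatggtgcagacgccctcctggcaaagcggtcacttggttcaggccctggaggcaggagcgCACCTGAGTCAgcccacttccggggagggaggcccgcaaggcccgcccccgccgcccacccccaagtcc
Of the 45 genes, 29 had a promoter in the RefSeq table, and 11 of these (37.9%) held CACCTG on either strand, beside 17.1% of all 27025 promoters of the same length. For 12 of the 29 the window reaches into the gene as annotated in the RefSeq gene table. CACCTG was in 4 of the 10 that rose between untreated genotypes and in 7 of the 19 others. TGANTCA was in 2 of 29 (6.90%, beside 6.85% of all) and AACCNGTT, a motif of Grainyhead-like proteins, in 1 of 29 (3.45%, beside 1.74%), searched on both strands. These are matches of letters within the window and not measured binding sites. Ocln, Dsp and Marveld2 had no match in this window.

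The genotypes were also compared after H2O2, between other libraries of the same 2 cell lines. Both comparisons came from 1 model of 12 libraries and shared its estimate of the spread. Again 20 of 40 passed (50%), 16 upward and 4 downward, beside 30.7% of all genes tested, 17.3% upward and 13.4% downward. Without the fold limit 28 were higher and 8 lower, beside 66.4% of all genes tested (35.1% and 31.3%). The median log2 fold change was 0.33, beside 0.02 over all genes. Without Ocln, Prkcz, Pkp3 and Ildr2, 13 of 36 rose and 3 fell, with a median of 0.29. Of the 20 genes called in each comparison, 18 were shared and had the same sign. These 18 include Ocln, Prkcz, Pkp3 and Ildr2, which had to differ. Nectin1 (0.52) and Pard3 (-0.49) were under the fold limit with H2O2, and Cxadr (-0.63 ± 0.07, edgeR adjusted p = 4.06e-10) and Pard6b (0.65 ± 0.06, edgeR adjusted p = 1.14e-11) passed in their place. With H2O2, Dsp had 12.2, 15.5 and 10.3 normalized counts in floxed and 2569, 2666 and 2725 in TβRII-/- cells (log2 fold change 7.69 ± 0.12, edgeR adjusted p = 1.14e-31). Ppl had 1320, 1291 and 1177 against 7614, 7298 and 8347, a smaller log2 fold change of 2.62 ± 0.07 (edgeR adjusted p = 2.87e-25). Ildr2 had 344, 293 and 251 raw counts against 0, 1 and 2, and Prkcz 1, 1 and 0 against 130, 98 and 106. The Prkcz ratio was 140 (exact 95% interval for counting error 38.6 to 1164). In Dsp and Ppl the genotypes stayed apart with H2O2. Ildr2 and Prkcz passed the filter only through the genotype in which they were high, and so had to differ.

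H2O2 in serum-free medium moved few of these genes past the fold limit in either genotype. In floxed cells 1 of 40 passed (2.5%, beside 8.24% of all genes tested, 5.68% upward and 2.56% downward), and this was Ocln. It had 0, 0 and 1 raw counts untreated and 2, 9 and 6 with H2O2, a ratio of 16.7 (exact 95% interval for counting error 2.62 to 699, edgeR adjusted p = 0.00275). These values lie near the limit of detection and far under the 193 to 274 raw counts of TβRII-/- cells with H2O2. Cgn (0.584), Marveld1 (0.58) and Tjp3 (0.56) were close under the fold limit of 0.585. In TβRII-/- cells 1 of 40 passed (2.5%, beside 8.33%, 4.56% upward and 3.76% downward), Ppl, which fell from 12979, 12566 and 11888 to 7614, 7298 and 8347 normalized counts (log2 fold change -0.69 ± 0.06, edgeR adjusted p = 4e-10). Perp, at -0.58 ± 0.06, was close under the limit. Without the fold limit, 19 genes in floxed cells (13 higher, 6 lower) and 16 in TβRII-/- cells (9 higher, 7 lower) had an adjusted p under 0.05, beside 41.6% (21% higher, 20.5% lower) and 39.6% (20.5% higher, 19.1% lower) of all genes tested. The count of 1 in floxed cells was 0 when only the groups compared were fitted. Ocln, with at most 9 raw counts in any floxed library, was not tested in that fit. The count was 3 or 4 without replicate 1 or 3 of floxed cells with H2O2 or replicate 1 or 2 of untreated floxed cells.

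The effect of H2O2 differed between the genotypes, by the interaction term of the same model, in 10 of 40 genes (25%, beside 10.2% of all genes tested), upward in TβRII-/- relative to floxed cells in 3 and downward in 7, beside 3.9% and 6.28% of all genes. No fold limit applied to this test. Ppl had a log2 change with H2O2 of 0.27 ± 0.07 in floxed and of -0.69 ± 0.06 in TβRII-/- cells, a difference of -0.95 ± 0.10 (edgeR adjusted p = 4.61e-08). Perp, a p53 and p63 target that is part of desmosomes, had 2460, 2500 and 2183 normalized counts without and 2392, 2340 and 2407 with H2O2 in floxed cells. In TβRII-/- cells it had 3598, 3491 and 3220 without and 2430, 2260 and 2215 with H2O2. The untreated genotypes stood apart and those with H2O2 overlapped, and the difference of the H2O2 effects was -0.58 ± 0.09 (edgeR adjusted p = 3.43e-05). Cgn had 1945, 1747 and 1548 normalized counts without and 2582, 2787 and 2486 with H2O2 in floxed cells, and 2221, 2164 and 2172 without and 2109, 2331 and 2353 with H2O2 in TβRII-/- cells. Its difference was -0.53 ± 0.10 (edgeR adjusted p = 0.00035). With H2O2 each floxed library had more Cgn than any TβRII-/- library, the reverse of the untreated order. Nectin3 had 1121, 1149 and 1280 normalized counts with H2O2 in floxed and 342, 368 and 361 in TβRII-/- cells, a difference of effects of -0.53 ± 0.10 (edgeR adjusted p = 0.000691).

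Lsr had 742, 687 and 634 normalized counts with H2O2 in floxed and 2443, 2393 and 2739 in TβRII-/- cells (difference of effects -0.40 ± 0.10, edgeR adjusted p = 0.00897). Cxadr had 14725, 14623 and 12762 normalized counts without and 17829, 17583 and 17664 with H2O2 in floxed cells, which did not overlap. In TβRII-/- cells it had 12005, 11757 and 10923 without and 11206, 11247 and 11768 with H2O2, which did (difference -0.35 ± 0.09, edgeR adjusted p = 0.0118). For Ocln the term rests on the single raw count in untreated floxed cells. Its adjusted p of 0.016 rose to 0.0564 without replicate 2 of untreated floxed cells, and to 0.0811 without replicate 2 of floxed cells with H2O2. Pard3, with 1839, 1656 and 1772 normalized counts in floxed and 1238, 1271 and 1247 in TβRII-/- cells after H2O2, had a difference of 0.27 ± 0.09 (edgeR adjusted p = 0.0393). Its call, and the calls of Jup (0.26 ± 0.08, edgeR adjusted p = 0.045) and Ctnna1 (0.27 ± 0.09, edgeR adjusted p = 0.0453) lay close to the limit. Leaving out any 1 of the 12 libraries left 0 or 1 of the 3 called upward.

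**Figure D4:**
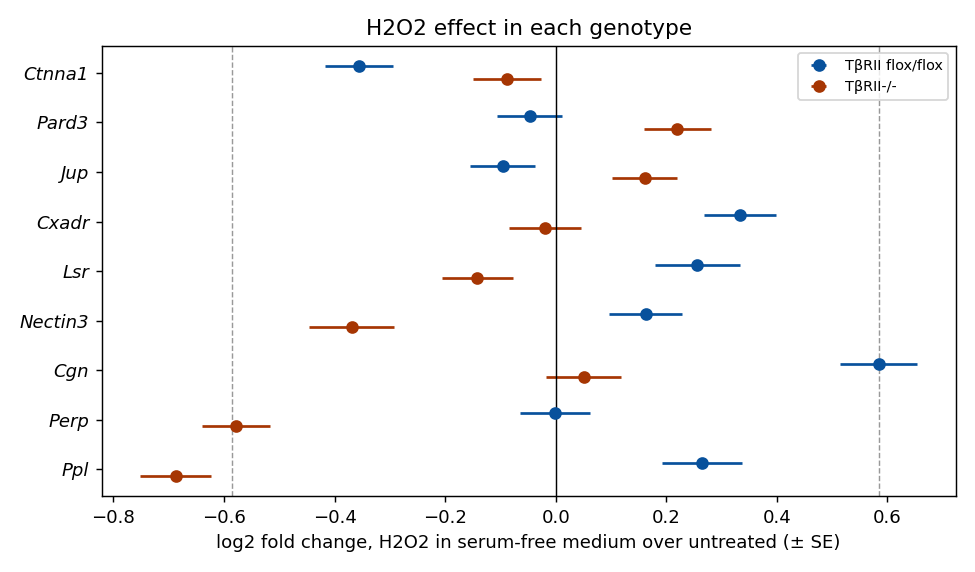
Log2 fold change with H2O2 in serum-free medium over untreated cells, with SE, for 9 of the 10 genes with an adjusted p under 0.05 in the interaction test. Ocln is left out because it was near 0 in untreated floxed cells. Dashed lines mark a fold change of 1.5, and Ppl in TβRII-/- cells, at -0.69, is the point that lies past them.

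Further genes of the same complexes were counted. Of 42 other junction and polarity genes, 41 were counted and 33 tested, and 3 rose and 4 fell between untreated genotypes, 21.2% beside the 28% of all genes tested. Without Esam, which passed the filter through TβRII-/- cells alone, 2 of 32 rose and 4 fell. Amot, angiomotin, a Crumbs complex partner (-1.61 ± 0.06, edgeR adjusted p = 1.8e-20), Mpdz, a multi-PDZ scaffold related to Patj (-1.39 ± 0.06, edgeR adjusted p = 6.15e-19), and Crb2 (-1.06) fell. Lmo7, an afadin-binding protein, rose by 1.09 on the log2 scale. The desmosomal cadherins Dsg1a, Dsg3, Dsc1 and Dsc3 had at most 4.89 mean normalized counts in any group and were not tested. Of 13 transcriptional regulators of epithelial junction genes 12 were tested, 7 rose and 3 fell, beside 16.3% and 11.8% of all genes tested. Without Grhl2, Grhl3 and Ovol1, which passed the filter through TβRII-/- cells alone, 4 of 9 rose and 3 fell. Grhl2, a Grainyhead-like factor, had means of 1.81 and 171 normalized counts, and Ovol1 of 1.79 and 34.0. Grhl3 had means of 6.81 and 44.4. Zeb2, a repressor that binds E-boxes, fell by 1.80 on the log2 scale (edgeR adjusted p = 3.63e-15). The basic helix-loop-helix factors Twist1 and Twist2, known as mesenchymal regulators, rose by 0.87 (edgeR adjusted p = 1.68e-05) and 1.14 (edgeR adjusted p = 3.81e-09).

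Markers of the proximal tubule and of other cell types also moved with genotype. Of 11 proximal tubule markers 7 were tested and 6 fell, beside 11.8% of all genes tested. Among the 6, Slc5a2, with means of 14.8 and 0, and Ggt1, with means of 75.8 and 7.61, passed the filter through floxed cells alone. The summed level of the 11 markers was 22030 to 28015 normalized counts in untreated floxed and 15064 to 16091 in untreated TβRII-/- cells. Lrp2 and Aqp1 made up nearly all of this sum. That of 7 loop and distal nephron markers was 82.8 to 117 and 369 to 423, with Calb1 and Aqp2 at 0 in every library and Scnn1a and Gata3 risen. That of 5 podocyte markers was 3026 to 3275 and 1061 to 1128, with Podxl risen, Synpo fallen and Nphs1 at 0. The sums of 7 fibroblast and pericyte markers (55.9 to 69.4, and 16.5 to 29.3), 6 endothelial markers (127 to 138, and 465 to 586) and 6 leukocyte markers (142 to 147, and 231 to 253) were low. Kdr and Cd68 made up most of the last 2 sums, and Lum, Tie1, Cd3e and Adgre1 were at 0 in every library. Among the fibroblast and pericyte markers Col1a1 and Pdgfrb fell and Dcn rose. Pdgfrb, with untreated means of 16.3 and 2.41, passed the filter through floxed cells alone. Dcn, with untreated means of 1.46 and 5.51, passed it through TβRII-/- cells alone. With H2O2 the proximal tubule sum was 30910 to 33767 in floxed and 15884 to 17260.3 in TβRII-/- cells, with Aqp1 at a mean of 14611 in floxed cells beside 7103 untreated, the distal sum 132 to 143 and 184 to 201, and the podocyte sum 2927 to 3523 and 1205 to 1265. The part of these markers in the results on junction genes was not tested.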

How the data were processed

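RNA from 12 libraries of conditionally immortalized PT cells was sequenced as stranded mRNA libraries. Reads were trimmed with fastp and aligned with STAR to GRCm38.p6 (GENCODE M23), and featureCounts gave the values that the authors deposited, which are raw counts for each transcript. A read can be counted on several transcripts of a gene, so that their sum was 3.20 to 3.32 times the total over genes. Identifiers of 104820 out of 106332 transcripts were found in GENCODE M39, and the rest (1.22% to 1.28% of counts per library) was not used. Each of 25514 genes was represented by its transcript with the highest total. The labels name a Qiagen kit and the methods of the study another for RNA isolation.

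Counts were tested with glmQLFit and glmQLFTest of edgeR 4.0.16 in R 4.3.3 after TMM normalization and filterByExpr, in 1 model of 12 libraries with a mean per group. Genes were called at a Benjamini-Hochberg adjusted p under 0.05 over all 12971 genes tested and a fold change of at least 1.5, the interaction without the fold limit. SE were derived from the F statistic. Groups with at most 3 raw counts are given as ratios with exact 95% intervals or, at 0, against 3 counts over the group; both cover counting error only. Alternatives were DESeq2 1.42.0 and its size factors, other filters and limits, sums over transcripts, fewer groups, the replicate block, neighbouring genes and each library left out.

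Values per library are given for the 14 genes with the largest change between untreated genotypes, up to 6 called with H2O2 in each genotype, up to 8 called in the interaction, and 8 core components (Tjp1, Ocln, F11r, Dsp, Jup, Ctnnb1, Pard3, Scrib). Values of other genes named were chosen after they were seen. The gene lists and tests were chosen with earlier results of these data known. Coordinates and promoters are from RefSeq tables of GRCm38.p6, with 1 promoter per gene. The 18 correlations between same-numbered replicates ranged from -0.101 to 0.058, so replicate numbers were not treated as pairs. A marker gene of the lists is not reported here.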

Additional observations from a re-analysis of the deposited data

Results flagged for a closer look

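The effect of H2O2 differed between the genotypes, at an adjusted p under 0.05 of the interaction term, for 10 genes. The difference, TβRII-/- minus floxed cells on the log2 scale, was -0.95 for Ppl, -0.58 for Perp, -0.53 for Cgn, -0.53 for Nectin3, -0.40 for Lsr, -0.35 for Cxadr and -3.60 for Ocln. It was 0.27 for Pard3, 0.26 for Jup and 0.27 for Ctnna1. The value of Ocln rests on 1 raw count in untreated floxed cells. The groups hold 3 libraries each, so single libraries were not tested for standing apart.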

How the results depend on the processing

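Between genotypes, the 16 rises and 4 falls in untreated cells, and the same numbers with H2O2, stayed within 1.5 times under every alternative except an adjusted p with no fold limit, which gave 28 and 8 in both comparisons (8387 and 8617 of all genes). Of the genes called, and 8 core genes between untreated genotypes, none reversed except under subtraction of the median of neighbouring genes, whose use for single genes was chosen after seeing the data: Scrib became -0.21 and Jup 0.077. Prkci (0.19), Pard6a (0.06), Nectin2 (0.05) and Pkp2 (-0.02), which were not called, also changed sign there. With no fold limit, H2O2 gave 13 higher and 6 lower in floxed cells (5392 of all genes) and 9 and 7 in TβRII-/- cells (5135). The single rise with H2O2 in floxed cells became 3 with DESeq2's size factors and with DESeq2, 2 with at least 10 counts in every library and with sums over transcripts, 0 with only the groups compared and 1 to 4 with a library left out. Ocln was not tested with only the groups compared or with at least 10 counts in every library. The single fall in TβRII-/- cells became 2 with no filter, with sums and with only the groups compared, and 1 to 2 with a library left out, 2 without replicate 1 of TβRII-/- cells with H2O2 or replicate 3 of untreated ones. The interaction's 3 rises became 0 with DESeq2's size factors, with sums and with the replicate block, and 0 to 1 with a library left out, and its 7 falls ranged from 6 to 9. An unadjusted p under 0.01 with a fold limit of 1.5 left 0 rises, 2 falls and 357 of all genes in it. Its count over all genes ranged from 833, without replicate 1 of TβRII-/- cells with H2O2, to 1680, and was 878 without replicate 2. Replicate numbers were not shown to pair the samples, and the cause of these shifts was not tested. Depth limits Ocln, Prkcz, Ildr2 and Pkp3, which had 0 to 9 raw counts in one genotype.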
